A study of Homo sapiens with 15 samples.

Results

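MYC and the genes of ribosome biogenesis were followed across 4 populations of HCC1954, an established HER2+ human breast cancer cell line. The gene set was a list of 45 names, and a member was kept when its value reached 10 in 3 or more of the 15 libraries. By this rule 43 of the 45 names were kept, out of 10050 genes that met the same rule and 19843 gene names in all. NPM3 was left out with a highest value of 0.225, and BOP1 was left out with values of 3.11 to 9.40. PPAN lay just inside the rule, where the third highest of its values was 12.1. All 43 members also passed the filter for testing, which was a value of at least 10 in 4 of the 12 libraries of the tested table.

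The groups were M-BM, metachronous brain metastatic cells (4 libraries), Lat, latent or residual brain tropic cells (4 libraries), S-BM, synchronous brain metastatic cells (4 libraries), and Pa, the parental line (3 libraries). All 4 populations were HER2+ HCC1954 cells grown in R3F medium and kept in it overnight before RNA was taken. The RNA therefore describes cultured cells and none of it was measured in brain. Nothing in the labels tells whether replicate libraries stem from different cultures or different animals. The p-values thus cover only the spread between libraries, which may be technical. In bulk RNA, fewer cells of a type and less RNA per cell cannot be told apart.

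MYC is a transcription factor that binds DNA as a dimer with MAX at the sequence CACGTG, called the E-box. MXD1 and MXI1 are repressors that pair with MAX at the same sequence. Ribosome biogenesis takes place mainly in the nucleolus, where RNA polymerase I copies the ribosomal RNA genes, small nucleolar ribonucleoproteins modify the transcript, and assembly factors process it into the small and large subunits. Many genes of this pathway are textbook targets of MYC.

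Depth was 13.25 to 21.84 M recovered reads in the 12 libraries of S-BM, Lat and M-BM and 15.51 to 18.66 M in Pa. A count of 3 reads equalled a normalized count of 0.136 to 0.225 in the first set, and such floors cover counting error only. ERBB2, which encodes HER2, had normalized counts of 2801 to 4929 across the M-BM, Lat and Pa libraries. In S-BM it had 4109 in library 1, 4642 in library 2, 353 in library 3 and 367 in library 4. S-BM 3 and S-BM 4 were also the closest pair of their group, at 3.4 times the counting noise, where the other S-BM pairs lay at 33.63 to 67.68 times. Lat 1 and Lat 2 were likewise the closest Lat pair, at 3.88 times, where the other Lat pairs lay at 8.83 to 42.1 times. The libraries of a group were thus not equally distinct. Of the host cell markers, GFAP of astrocytes, SNAP25 of neurons, MOG of oligodendrocytes and PTPRC and AIF1 of leukocytes stayed below 0.3 in every library. Other genes of the same lists were detected: over all 15 libraries MBP of oligodendrocytes ranged over 75.6 to 150.5, MAG over 0.662 to 6.78, CSF1R of leukocytes over 2.23 to 14.8, SYT1 of neurons over 0.0662 to 4.30, CDH5 of endothelium over 1.17 to 17.7 and COL1A1 of fibroblasts over 3.25 to 20.7. SLC1A3, on the astrocyte list, was detected in all groups, at 32.0 to 79.5 in M-BM, 36.6 to 48.8 in Lat, 172 to 325 in S-BM and 313 to 425 in Pa, and its part in the results was not tested.

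The promoter sequences of the members were searched for the E-box. RefSeq windows of the GRCh38.p14 build, from 250 bases before to 50 bases after an annotated start, were matched for 36 of the 43 members. Some genes had several annotated starts, and the 36 members had 51 windows. A gene was counted when any of its windows held the motif. The motif searched was CACGTG, which reads the same on both strands. It was found for 17 of the 36 members (47.2%), beside 8.77% of all 27305 genes of the promoter reference and 13.1% of the 7384 tested genes that were matched. In the 250 bases before a start alone it was found for 7 members (19.4%), beside 7.73% of all genes of the reference and 11.7% of tested genes. Counted by window of the full length, 35.3% of the members' windows held it. The shares were 7.26% of all windows and 9.56% of the windows of tested genes. A match describes the letters of the window and no binding was measured. MYC, NOP58, TCOF1, NOLC1, RRP12, RRS1 and DDX18 were not matched.

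The following 30-base windows are examples from members with the motif. ODC1, LYAR, PES1, BYSL, NOC3L, IMP4 and DDX21 had large called differences in Lat minus S-BM. SRM, FBL, GNL3 and UTP20 had small differences that were not called there. Other members with the motif are not shown, among them MRTO4, called at log2 0.66. Each is written 5′ to 3′ on the strand of its gene, with the E-box in capitals. The starts used for ODC1, LYAR, PES1, BYSL, DDX21 and GNL3 lay inside the span of the gene, not at its outer end. PES1 spans chr22:30576625-30607013 and BYSL spans chr6:41908759-41933046. For IMP4 the window farther from the start is shown, and another E-box of it lies at chr2:130342900-130342929.
ODC1, chr2:10448024-10448053, minus strand: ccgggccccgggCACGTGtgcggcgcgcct
ODC1, chr2:10447990-10448019, minus strand: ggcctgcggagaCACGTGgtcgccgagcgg
LYAR, chr4:4290068-4290097, minus strand: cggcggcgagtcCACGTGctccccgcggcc
PES1, chr22:30591880-30591909, minus strand: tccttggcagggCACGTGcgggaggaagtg
BYSL, chr6:41921515-41921544, plus strand: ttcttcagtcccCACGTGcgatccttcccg
NOC3L, chr10:94362903-94362932, minus strand: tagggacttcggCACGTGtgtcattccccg
IMP4, chr2:130342682-130342711, plus strand: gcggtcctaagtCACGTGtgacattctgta
DDX21, chr10:68956604-68956633, plus strand: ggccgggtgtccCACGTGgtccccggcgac
SRM, chr1:11060200-11060229, minus strand: ccggccgggcccCACGTGgcccctggagcg
FBL, chr19:39846356-39846385, minus strand: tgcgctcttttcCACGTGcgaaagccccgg
GNL3, chr3:52686026-52686055, plus strand: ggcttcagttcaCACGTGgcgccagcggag
UTP20, chr12:101280083-101280112, plus strand: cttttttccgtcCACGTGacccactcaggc

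The 250 bases before an annotated start are shown in full for ODC1 and SRM, the pair of polyamine enzymes among the members. Both hold the E-box and their values across the groups differed, as given further on.
ODC1, chr2:10448013-10448262, minus strand: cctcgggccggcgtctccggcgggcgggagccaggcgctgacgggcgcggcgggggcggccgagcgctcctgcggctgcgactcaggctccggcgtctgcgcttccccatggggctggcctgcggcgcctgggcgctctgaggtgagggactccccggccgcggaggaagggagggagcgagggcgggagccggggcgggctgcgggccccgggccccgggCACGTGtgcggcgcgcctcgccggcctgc
SRM, chr1:11060019-11060268, minus strand: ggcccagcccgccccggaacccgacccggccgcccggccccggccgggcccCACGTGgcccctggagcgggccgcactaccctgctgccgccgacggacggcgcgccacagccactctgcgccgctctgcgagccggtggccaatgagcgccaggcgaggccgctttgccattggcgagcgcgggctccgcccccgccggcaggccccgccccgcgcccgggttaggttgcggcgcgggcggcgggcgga

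In Lat cells, most of the members were higher than in S-BM cells. Here and below, a member is called higher or lower when its adjusted p was under 0.05, by limma on log2(value + 1) with Benjamini-Hochberg adjustment over all 9646 tested genes. In Lat minus S-BM, 27 of the 43 members were called higher, beside 30.2% of all tested genes, and MXI1 alone was called lower, beside 29.4% of all tested genes. The share of members called in either direction was 65.1%, beside 59.7% of all tested genes. The members' median log2 fold change was 0.41, with a range of -0.77 to 1.17, and the median over all tested genes was 0.01. In 23 members all Lat libraries lay above all S-BM libraries, beside 26.9% of tested genes, and in 1 member all lay below, beside 27.6%. A called change of 1.5-fold or more was seen upward in 15 members, beside 16.1% of tested genes, and downward in 1, beside 17.2%.

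M-BM cells stood in much the same relation to S-BM cells. In M-BM minus S-BM, 28 of the 43 members were called higher by limma, beside 26.9% of tested genes, and MXI1 was again the member called lower, beside 25.8% of tested genes. Either direction together held 67.4% of the members and 52.7% of tested genes. The F test over S-BM, Lat and M-BM called 28 of 43 members, beside 56.8% of tested genes. The median log2 fold change of the members was 0.43, with a range of -0.56 to 1.20, against 0.01 over all tested genes. All M-BM libraries lay above all S-BM libraries in 21 members, beside 23.5% of tested genes, and below them in 1, beside 22.8%. A called change of 1.5-fold or more was seen upward in 12 members, beside 12.8% of tested genes, and downward in 0, beside 13.4%. Both comparisons share the S-BM libraries. Without S-BM 3 and S-BM 4, the libraries with low ERBB2, 24 members were called higher and 2 lower in Lat minus S-BM, and 28 higher and 2 lower in M-BM minus S-BM. The second member called lower was POLR1A in both, with log2 fold changes of -0.41 in Lat minus S-BM and -0.40 in M-BM minus S-BM. Of all genes called without S-BM 3 and S-BM 4, 49.2% were higher in Lat minus S-BM and 49.4% in M-BM minus S-BM.

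**Figure D1:**
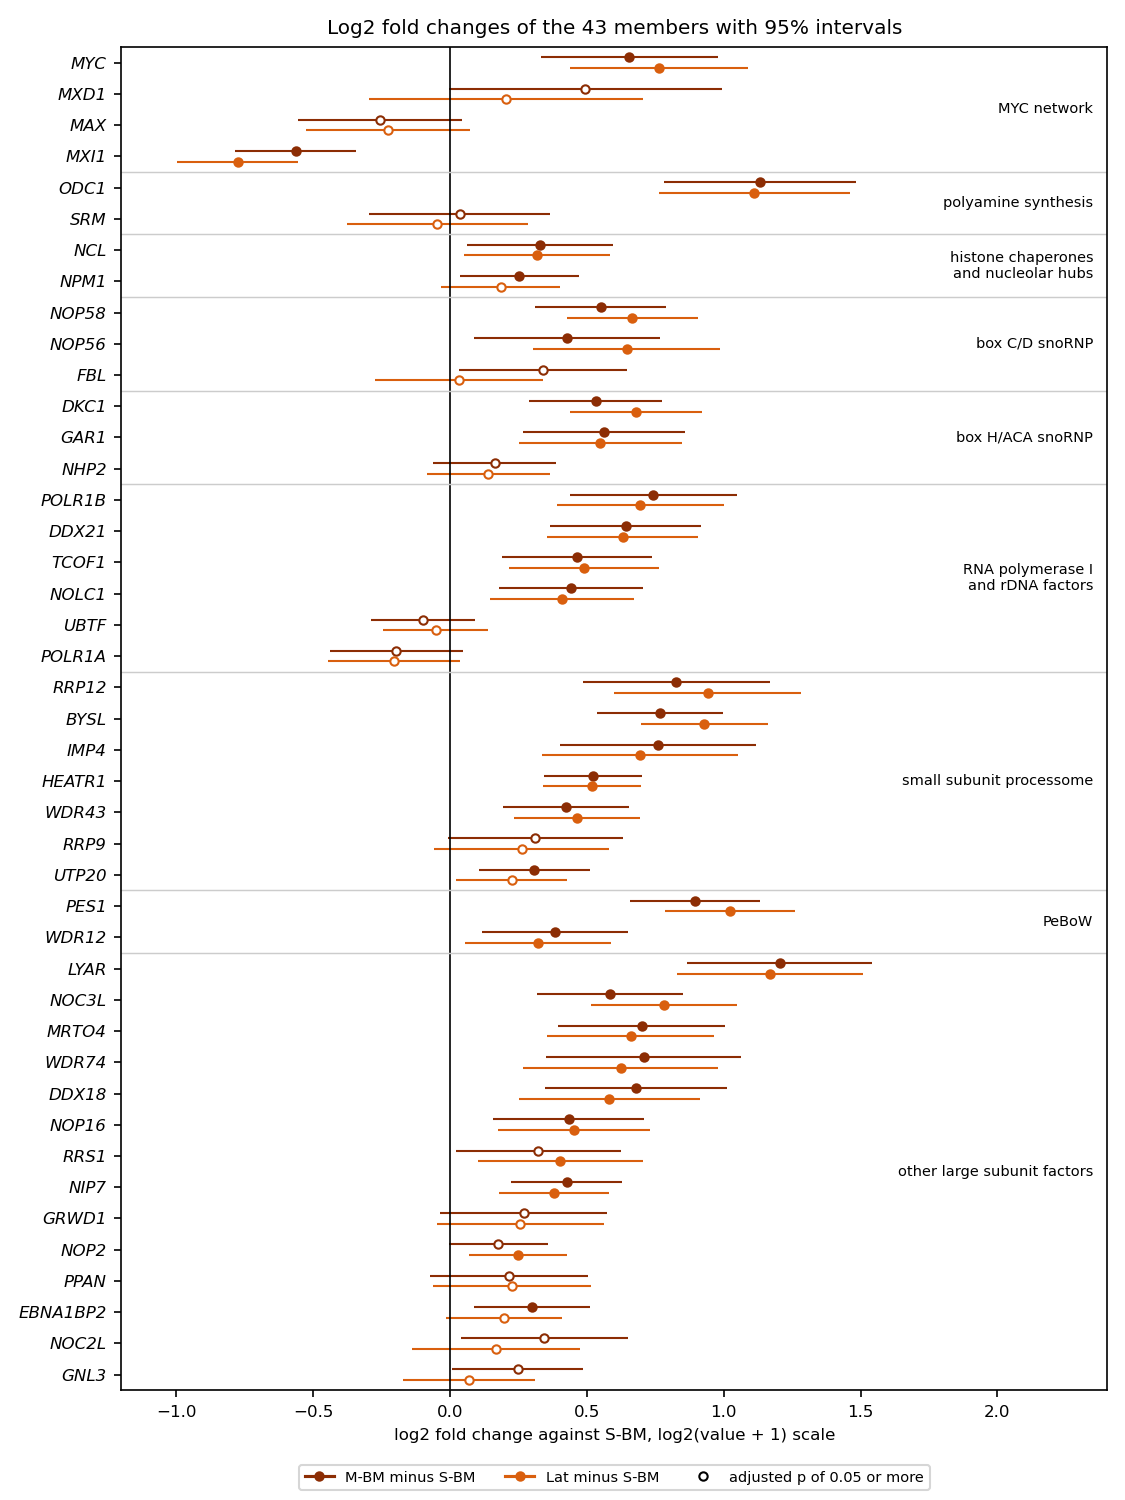
Log2 fold change of each of the 43 members over S-BM, with 95% intervals from the limma fit, for both comparisons; open symbols are not called. Most members lie right of 0 in both, LYAR, ODC1 and PES1 farthest, and MXI1 lies left of 0.

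Between M-BM and Lat cells no member was called, beside 0.145% of tested genes called in either direction, 0.0933% called higher and 0.0518% called lower. All of those tested genes also changed 1.5-fold or more. By limma, 0 members had an unadjusted p under 0.05, and the lowest adjusted p was 0.463. The edgeR and DESeq2 tests also called 0 members. The log2 fold changes of M-BM minus Lat ran from -0.22 for NOP56 to 0.30 for FBL, and the 95% intervals of the members spanned -0.56 to 0.79 at their widest bounds. MXI1 was the one member whose M-BM libraries all lay above its Lat libraries, beside 3.85% of tested genes.

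MYC itself was higher in M-BM and Lat cells than in S-BM cells. Its normalized counts were 309, 249, 263 and 220 in M-BM 1 to 4, 297, 287, 293 and 242 in Lat 1 to 4, and 163, 118, 193 and 193 in S-BM 1 to 4. Every M-BM and Lat library lay above every S-BM library. MYC rose 1.70-fold in Lat over S-BM (log2 0.76, SE 0.15, limma adjusted p = 0.000651) and 1.58-fold in M-BM over S-BM (log2 0.66, SE 0.15, limma adjusted p = 0.00255). Pa stood at 124 ± 2.55 as deposited (SD, n = 3). MYC lies at chr8:127735434-127742951 in GRCh38.

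The neighbouring noncoding gene PVT1 gave log2 values of 0.19 in Lat minus S-BM (limma adjusted p = 0.295) and 0.28 in M-BM minus S-BM (limma adjusted p = 0.132), and neither was called. GSDMC, farther along the same chromosome, had log2 fold changes of -2.13 in Lat minus S-BM and -2.36 in M-BM minus S-BM (limma adjusted p = 2.27e-05 and 1.86e-05). PVT1 and GSDMC were chosen after their values were seen.

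Among MYC's partner and its antagonists, MXI1 fell and the others did not pass the test. MXI1 stood at 20.7, 20.2, 20.9 and 25.02 in M-BM, 18.1, 18.8, 18.7 and 18.6 in Lat, and 30.9, 37.0, 33.5 and 28.8 in S-BM. The S-BM libraries all lay above the M-BM and Lat libraries. Its log2 fold change was -0.77 in Lat minus S-BM (SE 0.10, limma adjusted p = 2.57e-05) and -0.56 in M-BM minus S-BM (limma adjusted p = 0.000487).

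MAX, the shared dimer partner, stood at 55.3, 49.0, 46.9 and 43.9 in M-BM, 53.1, 49.0, 42.7 and 54.3 in Lat, and 51.2, 46.1, 73.3 and 66.1 in S-BM. The groups overlapped, and the S-BM libraries formed a low pair (1 and 2) and a high pair (3 and 4). On the log2 scale the differences were -0.23 in Lat minus S-BM (limma adjusted p = 0.175) and -0.25 in M-BM minus S-BM (limma adjusted p = 0.138). Without S-BM 2 both were called, at -0.34 (adjusted p = 0.0419) and -0.36 (adjusted p = 0.0336). Without S-BM 3 and S-BM 4, the low-ERBB2 libraries, MAX gave 0.03 in Lat minus S-BM (adjusted p = 0.872) and -0.00056 in M-BM minus S-BM (adjusted p = 0.997).

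MXD1 stood at 33.8, 37.3, 66.4 and 66.0 in M-BM, 38.8, 38.2, 46.1 and 35.6 in Lat, and 51.9, 33.0, 26.7 and 29.6 in S-BM. M-BM 3 and M-BM 4 were high, and the groups overlapped. Its log2 fold change was 0.20 in Lat minus S-BM (limma adjusted p = 0.468) and 0.49 in M-BM minus S-BM (limma adjusted p = 0.0882). In M-BM minus S-BM it was called without S-BM 1 (0.69, adjusted p = 0.0188) and without M-BM 1 (0.66, adjusted p = 0.0289). Without S-BM 3 and S-BM 4, MXD1 gave -0.07 in Lat minus S-BM (adjusted p = 0.847) and 0.22 in M-BM minus S-BM (adjusted p = 0.525).

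Of the polyamine enzymes, ODC1 rose and SRM was not called. ODC1, ornithine decarboxylase, which makes putrescine at the head of the pathway, stood at 178, 163.5, 164 and 144 in M-BM, 174, 171, 167 and 131 in Lat, and 95.3, 49.7, 75.0 and 81.4 in S-BM. No M-BM or Lat library overlapped S-BM, and S-BM 2 was the lowest. ODC1 rose 2.16-fold in Lat over S-BM (log2 1.11, SE 0.16, limma adjusted p = 5.94e-05) and 2.19-fold in M-BM over S-BM (log2 1.13, SE 0.16, limma adjusted p = 7.93e-05).

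SRM, spermidine synthase, stood at 22.9, 13.5, 19.8 and 14.8 in M-BM, 17.1, 14.3, 16.6 and 17.7 in Lat, and 17.6, 14.8, 16.7 and 18.9 in S-BM. The groups overlapped throughout. The log2 values were -0.05 in Lat minus S-BM, with a 95% interval of -0.38 to 0.28, and 0.04 in M-BM minus S-BM, with an interval of -0.30 to 0.37 (limma adjusted p = 0.811 and 0.865).

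**Figure D2:**
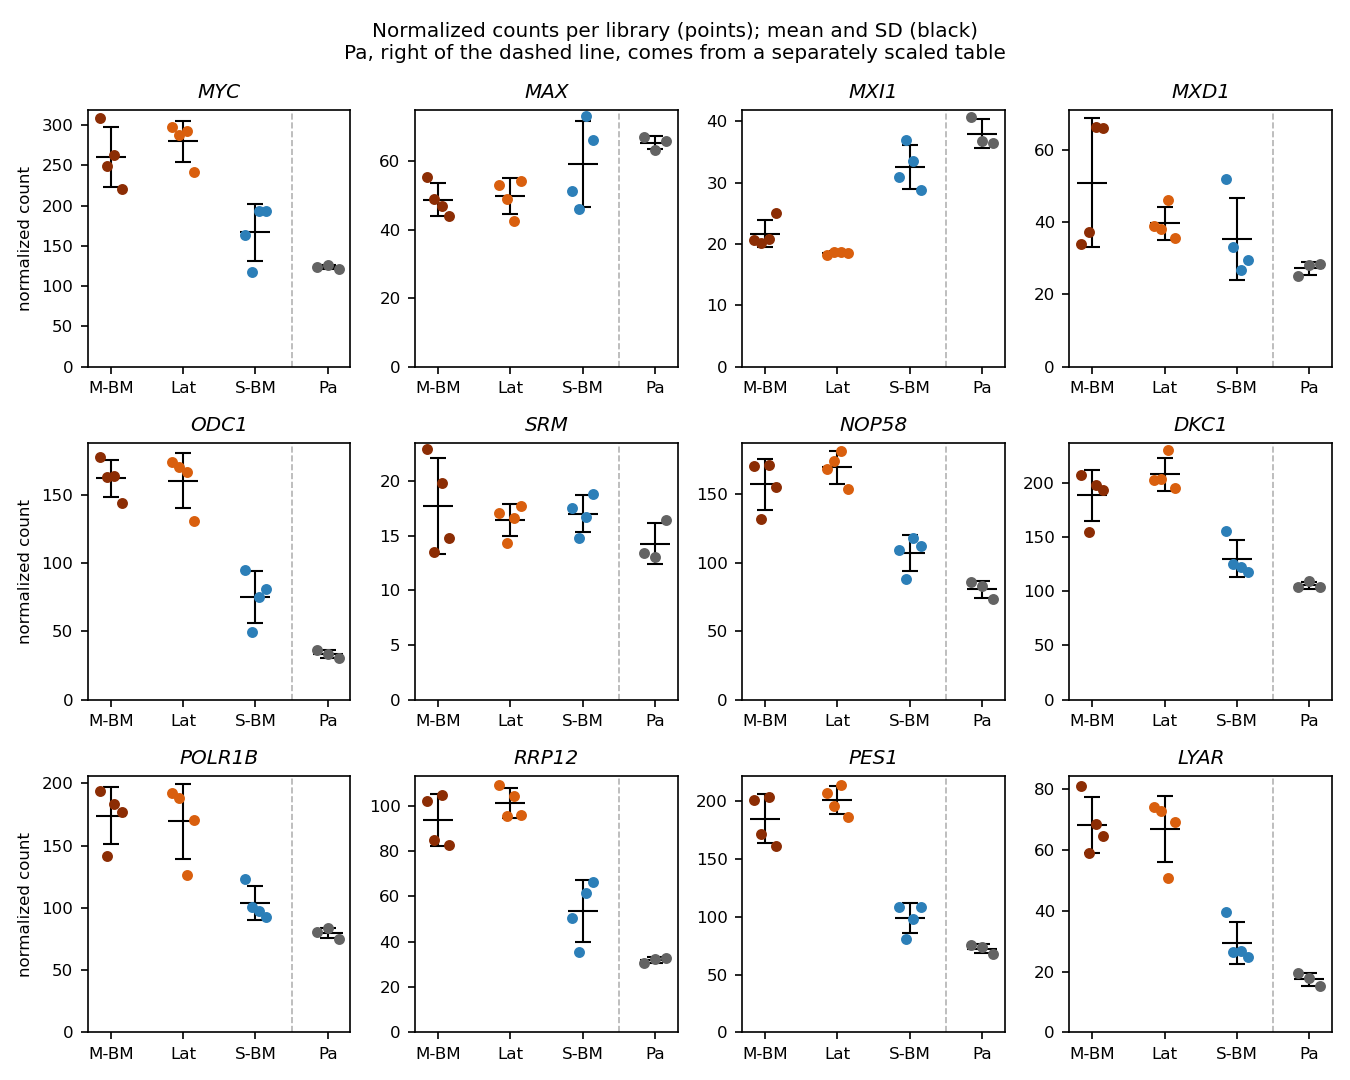
Normalized counts of 12 members in each library, as points, with group means and SD, in the order M-BM, Lat, S-BM, Pa. MYC, ODC1, PES1, RRP12 and LYAR sit higher in M-BM and Lat than in S-BM, MXI1 sits lower, and SRM overlaps between groups.

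The counts of members called by role, given from here on, cover 2 to 14 genes each and stand beside 30.2% of all tested genes called higher in Lat minus S-BM and 26.9% in M-BM minus S-BM. Of the nucleolar hub proteins, 1 of 2 was called higher in Lat and 2 of 2 in M-BM. NCL, nucleolin, stood at 832.5, 587, 855 and 760 in M-BM, 786, 795, 744 and 664 in Lat, and 607, 516, 605.5 and 674 in S-BM. Its groups overlapped, with log2 values of 0.32 in Lat minus S-BM (limma adjusted p = 0.0387) and 0.33 in M-BM minus S-BM (limma adjusted p = 0.0379), both called. The calls were lost without S-BM 2, where the values were 0.25 (adjusted p = 0.107) and 0.26 (adjusted p = 0.102). They were lost in each comparison without S-BM 1 (adjusted p = 0.0612 and 0.0603) or S-BM 3 (0.0632 and 0.0627) too. The Lat call was also lost without Lat 1, Lat 2 or Lat 3 (adjusted p = 0.0924, 0.0940 and 0.0588), and the M-BM call without M-BM 1, M-BM 3 or M-BM 4 (0.0998, 0.116 and 0.0694). With all libraries kept, both calls were lost with no filter on low values (limma adjusted p = 0.0736 in each). The M-BM call was lost too after quantile normalization (0.0578) and with only the 2 groups compared in the fit (0.0615).

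NPM1, nucleophosmin, stood at 620, 517, 582 and 596 in M-BM, 575, 612, 529 and 496 in Lat, and 486, 419, 499 and 541 in S-BM, and its groups overlapped. NPM1 had log2 fold changes of 0.19 in Lat minus S-BM (limma adjusted p = 0.129) and 0.25 in M-BM minus S-BM (limma adjusted p = 0.0485). The M-BM call was lost in 16 of the 26 alternative settings, with adjusted p between 0.0283 and 0.132 over all of them. Leaving out S-BM 1, S-BM 2, S-BM 3, Lat 1, M-BM 1, M-BM 3 or M-BM 4 each ended it, with adjusted p of 0.0638 (without Lat 1) to 0.132 (without S-BM 2). NPM1 has processed pseudogenes, so reads shared with these copies leave its level uncertain.

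In the box C/D ribonucleoprotein, which methylates ribosomal RNA, 2 of 3 members were called higher in each comparison. NOP58, a core scaffold protein, stood at 170, 132, 171 and 155 in M-BM, 168, 174, 182 and 154 in Lat, and 109, 87.9, 118 and 112 in S-BM. No M-BM or Lat library overlapped S-BM. NOP58 rose by log2 0.67 in Lat (SE 0.11, limma adjusted p = 0.000177) and 0.55 in M-BM (SE 0.11, limma adjusted p = 0.00102) over S-BM.

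FBL, the methyltransferase fibrillarin, stood at 68.4, 80.9, 66.7 and 55.8 in M-BM, 58.7, 59.4, 39.4 and 63.4 in Lat, and 53.5, 57.0, 52.2 and 49.9 in S-BM. Its groups overlapped, with Lat 3 the lowest library. FBL had log2 fold changes of 0.03 in Lat minus S-BM (limma adjusted p = 0.849) and 0.34 in M-BM minus S-BM (limma adjusted p = 0.0602). The M-BM difference was called without Lat 3 (0.34, adjusted p = 0.0150) and without M-BM 4 (0.43, adjusted p = 0.0269). With only the 2 groups compared in the fit it was called as well (0.34, limma adjusted p = 0.0334).

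In the box H/ACA ribonucleoprotein, which makes pseudouridine, 2 of 3 members were called higher in each comparison. DKC1, the pseudouridine synthase dyskerin, stood at 207, 154, 198 and 193 in M-BM, 202, 203, 230 and 195 in Lat, and 155, 125, 122 and 117 in S-BM. Lat did not overlap S-BM, and M-BM 2 lay just below S-BM 1. DKC1 rose by log2 0.68 in Lat (SE 0.11, limma adjusted p = 0.000167) and 0.53 in M-BM (SE 0.11, limma adjusted p = 0.00145) over S-BM.

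NHP2, another core protein of the same particle, averaged 47.8 ± 4.31 in M-BM, 47.0 ± 4.03 in Lat and 42.6 ± 4.72 in S-BM (SD, n = 4 each). Its libraries were 52.1, 48.7, 48.6 and 41.8 in M-BM, 46.9, 45.7, 42.8 and 52.4 in Lat, and 47.6, 36.5, 41.8 and 44.6 in S-BM, and they overlapped. The log2 values of 0.14 in Lat minus S-BM and 0.16 in M-BM minus S-BM were not called (limma adjusted p = 0.264 and 0.205).

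Among the RNA polymerase I and ribosomal DNA factors, 4 of 6 were called higher in each comparison, beside 30.2% of all tested genes in Lat and 26.9% in M-BM. POLR1B, a large catalytic subunit of the polymerase, stood at 194, 142, 184 and 177 in M-BM, 192, 189, 127 and 171 in Lat, and 123, 100.5, 97.6 and 92.8 in S-BM. No M-BM or Lat library overlapped S-BM. POLR1B rose by log2 0.70 in Lat (SE 0.14, limma adjusted p = 0.000834) and 0.74 in M-BM (SE 0.14, limma adjusted p = 0.000678) over S-BM.

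UBTF, the factor that binds ribosomal DNA for initiation, stood at 103, 110, 93.3 and 94.2 in M-BM, 110, 108, 97.0 and 98.7 in Lat, and 104, 120, 102 and 103 in S-BM. The groups overlapped, with log2 values of -0.05 in Lat minus S-BM and -0.10 in M-BM minus S-BM (limma adjusted p = 0.633 and 0.368). POLR1A, the largest subunit, gave -0.21 in Lat minus S-BM and -0.20 in M-BM minus S-BM, neither called. TCOF1, NOLC1 and the helicase DDX21 were the others called higher, with log2 values in Lat minus S-BM of 0.49, 0.41 and 0.63.

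In the small subunit processome, 5 of 7 members were called higher in Lat and 6 of 7 in M-BM over S-BM. RRP12, an export and maturation factor, stood at 102, 84.7, 105 and 82.8 in M-BM, 109, 95.5, 104 and 95.8 in Lat, and 50.4, 35.6, 61.6 and 66.3 in S-BM. Every M-BM and Lat library lay above every S-BM library. RRP12 rose 1.92-fold in Lat (log2 0.94, SE 0.16, limma adjusted p = 0.000189) and 1.77-fold in M-BM (log2 0.83, SE 0.16, limma adjusted p = 0.000719) over S-BM.

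UTP20, a processome component, stood at 109, 110, 97.8 and 98.8 in M-BM, 102, 112, 96.1 and 83.3 in Lat, and 80.6, 82.3, 84.8 and 86.8 in S-BM. M-BM lay above S-BM in all libraries, and Lat 4 lay within the S-BM range. The log2 values were 0.23 in Lat minus S-BM (limma adjusted p = 0.0522) and 0.31 in M-BM minus S-BM (limma adjusted p = 0.0138). Without Lat 4 the Lat difference was called (0.30, adjusted p = 0.0113). With all libraries it was also called by edgeR (adjusted p = 0.0435), by DESeq2 (0.0337) and by limma after quantile normalization (0.0343). BYSL, a small subunit assembly factor, rose 1.90-fold in Lat and 1.70-fold in M-BM over S-BM, and RRP9 was the processome member called in neither.

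In the PeBoW complex of large subunit maturation, PES1 and WDR12 were both called higher, and BOP1 was below the value rule. PES1 stood at 201, 172, 203 and 161 in M-BM, 207, 196, 214 and 186 in Lat, and 108, 80.8, 98.3 and 108 in S-BM. The M-BM and Lat libraries all lay above S-BM. PES1 rose 2.03-fold in Lat (log2 1.02, SE 0.11, limma adjusted p = 4.76e-06) and 1.86-fold in M-BM (log2 0.89, SE 0.11, limma adjusted p = 2.73e-05) over S-BM.

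WDR12 stood at 73.4, 62.6, 80.4 and 80.1 in M-BM, 68.0, 72.3, 79.3 and 64.0 in Lat, and 57.4, 44.6, 66.3 and 59.4 in S-BM, with overlap between S-BM 3 and the lower M-BM and Lat libraries. WDR12 had log2 fold changes of 0.32 in Lat minus S-BM (limma adjusted p = 0.0370) and 0.38 in M-BM minus S-BM (limma adjusted p = 0.0188). Both calls were lost without S-BM 2 (0.21, adjusted p = 0.114, and 0.27, adjusted p = 0.0534). The Lat call was also lost without S-BM 1, Lat 1, Lat 2 or Lat 3 (adjusted p = 0.0573, 0.0557, 0.0763 and 0.0972), and the M-BM call without M-BM 3 or M-BM 4 (0.0570 and 0.0505). With all libraries kept, the Lat call was lost with no filter on low values (limma adjusted p = 0.0507).

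Of the 14 members grouped here as other large subunit factors, 9 were called higher in Lat and 8 in M-BM over S-BM, and none lower. The grouping was assigned by hand and was not tested. LYAR, a nucleolar zinc finger protein, stood at 80.9, 59.0, 68.3 and 64.4 in M-BM, 74.0, 72.8, 50.8 and 69.2 in Lat, and 39.4, 26.5, 26.7 and 24.7 in S-BM. No M-BM or Lat library overlapped S-BM. LYAR rose 2.25-fold in Lat (log2 1.17, SE 0.16, limma adjusted p = 2.95e-05) and 2.31-fold in M-BM (log2 1.20, SE 0.16, limma adjusted p = 4.05e-05) over S-BM.

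NOC3L, which takes part in moving pre-ribosomes through the nucleus, stood at 96.3, 65.1, 80.4 and 74.1 in M-BM, 87.1, 94.2, 105.5 and 75.2 in Lat, and 55.9, 50.7, 48.9 and 51.9 in S-BM. Both groups lay above S-BM in every library. NOC3L rose by log2 0.78 in Lat (SE 0.12, limma adjusted p = 0.000116) and 0.58 in M-BM (SE 0.12, limma adjusted p = 0.00147) over S-BM.

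NOC2L, of the same family, stood at 152, 108, 141 and 117 in M-BM, 118, 109.5, 118 and 109 in Lat, and 103, 74.3, 113 and 120 in S-BM, and its groups overlapped. NOC2L had log2 fold changes of 0.17 in Lat minus S-BM (limma adjusted p = 0.324) and 0.34 in M-BM minus S-BM (limma adjusted p = 0.0556). The M-BM difference was called without S-BM 3 (adjusted p = 0.0488), without S-BM 4 (0.0296), without M-BM 2 (0.0290), without S-BM 3 and S-BM 4 together (0.0129) and with the replicate number as a block (0.0303).

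GNL3, nucleostemin, stood at 163, 127, 151 and 148 in M-BM, 140.4, 142, 119.5 and 117 in Lat, and 139.5, 104, 124 and 128 in S-BM, and its groups overlapped. The log2 values were 0.07 in Lat minus S-BM (limma adjusted p = 0.609) and 0.25 in M-BM minus S-BM (limma adjusted p = 0.0764). The M-BM difference was called without S-BM 1 (0.31, adjusted p = 0.0445) and without M-BM 2 (0.32, adjusted p = 0.0336). The remaining members grouped as large subunit factors ran from 0.20 for EBNA1BP2 to 0.66 for MRTO4 in Lat minus S-BM.

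The members did not vary independently within a group. S-BM 2 held the lowest value of its group for 29 of 43 members, beside 33.4% of tested genes. M-BM 2 was lowest for 26 members, beside 31.3%, and Lat 4 for 23, beside 29.4%. M-BM 1 was highest for 25 members, beside 29.2%. The median member, relative to its mean over the 12 libraries, stood on the log2 scale at 0.28, -0.05, 0.21 and 0.09 in M-BM 1 to 4, at 0.23, 0.20, 0.05 and 0.07 in Lat 1 to 4, and at -0.14, -0.45, -0.23 and -0.19 in S-BM 1 to 4. M-BM 2 was the M-BM library nearest to S-BM, and S-BM 2 stood lowest.

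**Figure D3:**
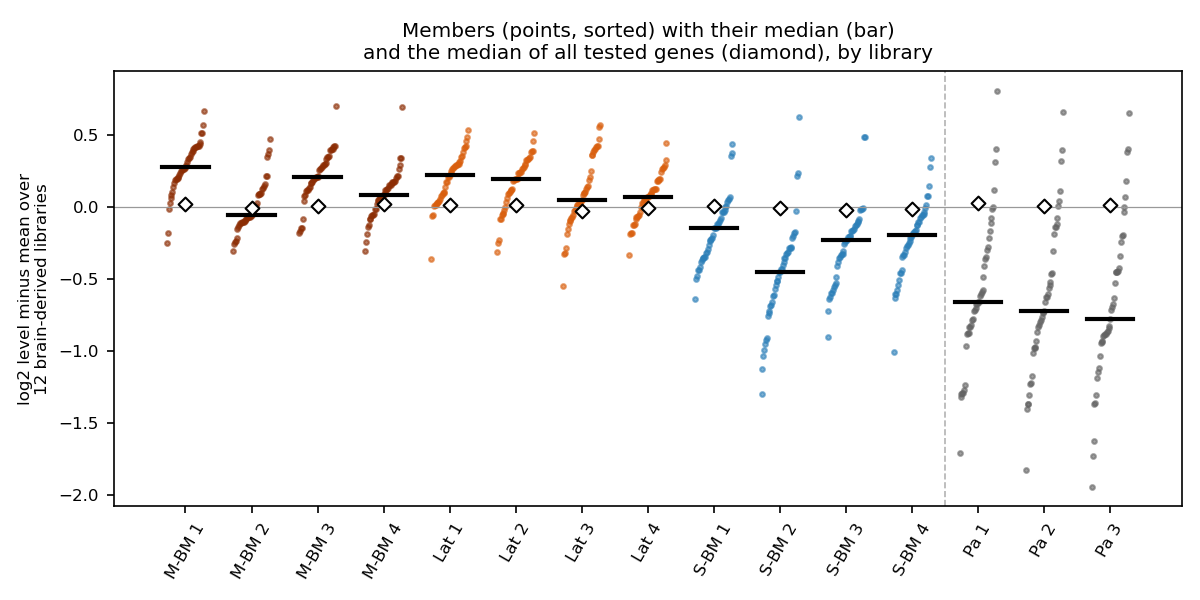
Log2 value of each member relative to its mean over the 12 libraries, by library, with the members' median as a bar and the median of all tested genes as a diamond. The S-BM medians lie at -0.45 to -0.14, below those of M-BM and Lat, while the all-gene medians stay near 0.

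The E-box in the promoter window was compared with the calls as a description. Of the 17 members with the motif, 11 were called higher in Lat and 12 in M-BM over S-BM, beside 30.2% and 26.9% of all tested genes. Of the 19 matched members without it, 9 were called higher in Lat and 10 in M-BM. Of the 7 members with no window matched, 7 were called higher in Lat and 6 in M-BM. The median log2 fold changes in Lat minus S-BM were 0.55 with the motif, 0.26 without and 0.58 in those not matched, and the ranges overlapped. Among those with the motif, SRM gave -0.05 and LYAR 1.17.

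Other genes of the pathway were counted from lists that hold none of the members. The list counts stand beside 30.2% of all tested genes called higher and 29.4% called lower in Lat minus S-BM, and 26.9% higher and 25.8% lower in M-BM minus S-BM. In the small subunit list, 28 of 51 tested genes were called higher and 6 lower in Lat minus S-BM, and 28 higher and 3 lower in M-BM minus S-BM. In the large subunit list of 48, 28 were higher and 4 lower in Lat, and 28 higher and 3 lower in M-BM. The RNA polymerase I and III list of 29 had 18 higher and 3 lower in Lat, and 14 higher and 3 lower in M-BM; its 1 gene called in M-BM minus Lat, POLR3F, was lower. The exosome list of 23 had 12 higher and 2 lower in Lat, and 12 higher and 0 lower in M-BM. Their medians in Lat minus S-BM were 0.31, 0.35, 0.39 and 0.34, in the order given, beside 0.01 over all tested genes.

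The largest called values of these lists in Lat minus S-BM were above the 1.17 of LYAR, the highest among the members. UTP23 of the small subunit rose by log2 1.48 in Lat and 1.20 in M-BM over S-BM. PAK1IP1 of the large subunit rose by 1.49 in Lat and 1.36 in M-BM. POLR1E, a polymerase I subunit, rose by 1.33 in Lat and 0.96 in M-BM. EXOSC9, an exosome subunit, rose by 1.47 in Lat and 1.58 in M-BM.

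The cytosolic ribosomal proteins, whose genes encode the structural parts of the ribosome, did not share this pattern. Of 29 tested, 3 were called higher and 7 lower in Lat, and 4 higher and 5 lower in M-BM over S-BM. Their median log2 fold changes were -0.04 in Lat and -0.01 in M-BM. RPSA fell by 0.82 in Lat and by 0.68 in M-BM, and RPL7A rose by 0.58 in Lat and 0.61 in M-BM. Many ribosomal protein genes have near-identical pseudogene copies, which leaves their levels uncertain.

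Lists around MYC had calls in both directions, and their shares called higher in Lat lay close to the 30.2% of all tested genes. Of 19 other MYC network genes, 6 were called higher and 7 lower in Lat, and 4 higher and 4 lower in M-BM over S-BM. PIM1, a kinase that cooperates with MYC, rose by log2 1.09 in Lat and 0.88 in M-BM, and TRRAP, a coactivator that MYC recruits, fell by 0.97 in Lat and by 0.88 in M-BM. Of 30 other MYC targets in growth and nucleotide synthesis, 9 were higher and 4 lower in Lat, and 10 higher and 4 lower in M-BM. Of 9 polyamine genes, 3 were higher and 1 lower in Lat, and 2 higher and 1 lower in M-BM.

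Of 16 genes of snoRNP assembly and rRNA modification, 6 were called higher and 1 lower in each comparison. Proliferation genes moved with the members: of 20 listed, 13 were called higher and 3 lower in Lat, and 11 higher and 3 lower in M-BM over S-BM, with a median of 0.46 in Lat and 0.44 in M-BM. MCM2, a subunit of the replicative helicase, averaged 83.0 ± 19.4 in M-BM, 87.4 ± 10.8 in Lat and 29.7 ± 1.53 in S-BM (SD, n = 4 each). The part of proliferation in the members' differences was not tested.

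**Figure D4:**
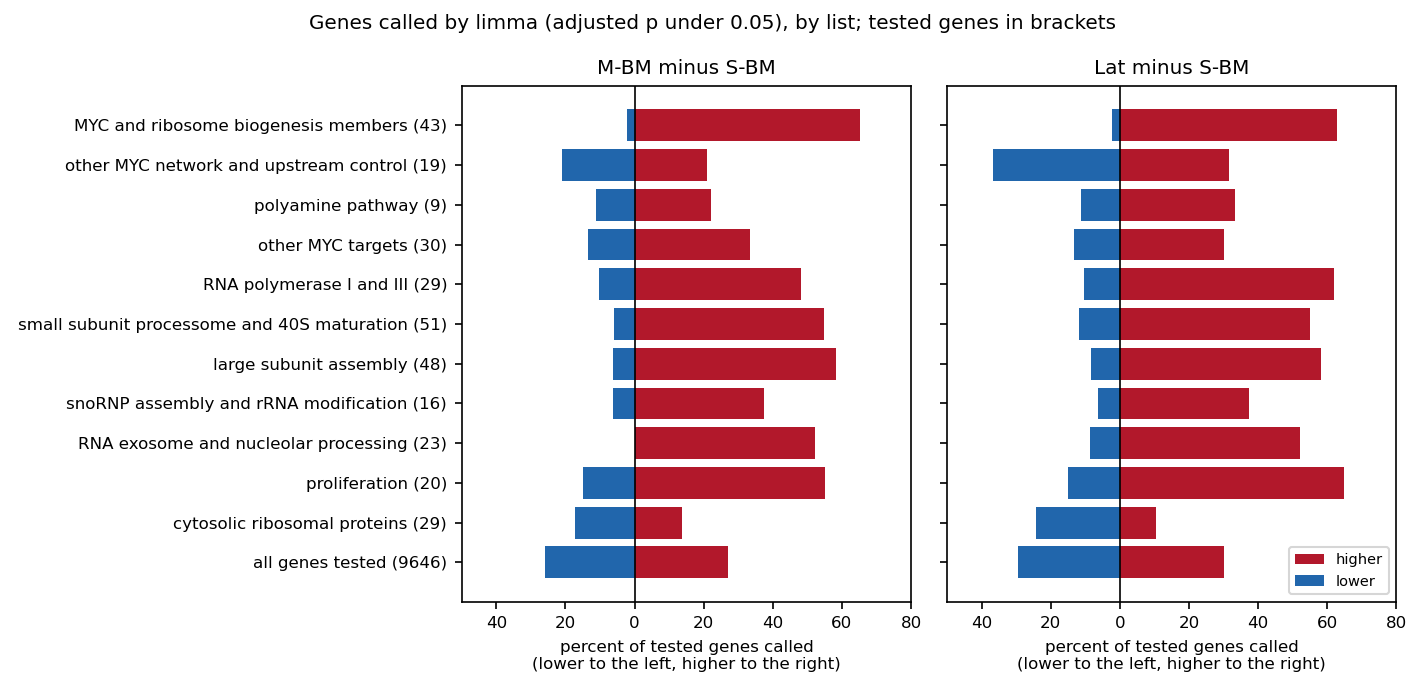
Percent of tested genes called higher and lower over S-BM in the members, in each pathway list and in all tested genes, for Lat and M-BM. The members and the assembly lists have more calls higher than lower, and the cytosolic ribosomal proteins do not.

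The parental cells were set beside the other groups as levels only, because their table was normalized separately. A factor of 1.0316, taken from the median gene ratio, put Pa on the scale of the other table, and no test was made across tables. All M-BM libraries lay above all Pa libraries in 32 of 43 members, beside 32.7% of tested genes. All Lat libraries did so in 35 members, beside 34.4%, and all S-BM libraries in 22, beside 19.6%. The median log2 ratio of the members to Pa was 0.84 in M-BM, 0.87 in Lat and 0.36 in S-BM, beside -0.01, -0.02 and -0.02 over all tested genes.

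ODC1 stood at 4.72 times the Pa mean in M-BM, 4.67 times in Lat and 2.19 times in S-BM. LYAR stood at 3.77, 3.69 and 1.62 times Pa, and MYC at 2.04, 2.19 and 1.31 times Pa, in the same order of groups. In these genes S-BM lay between Pa and the other groups by its mean. For ODC1 and LYAR all S-BM libraries lay above all Pa libraries. For MYC they overlapped, with S-BM 2 at 118 and the scaled Pa libraries at 125 to 130. NOP2, an RNA methyltransferase, stood at 2.55 times Pa in M-BM, 2.69 times in Lat and 2.26 times in S-BM. By its mean, NOP2 in S-BM lay nearer to M-BM and Lat than to Pa.

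Few members lay below Pa. All M-BM libraries lay below all Pa libraries for 3 members, beside 33.6% of tested genes, and these were MAX, MXI1 and POLR1A. The same 3 genes lay below Pa in Lat, beside 36.8%. MXI1 and FBL lay below Pa in S-BM, beside 23.1%, but with Pa as deposited 0 members did. MXI1 stood at 0.55 times Pa in M-BM, 0.47 times in Lat and 0.83 times in S-BM.

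**Figure D5:**
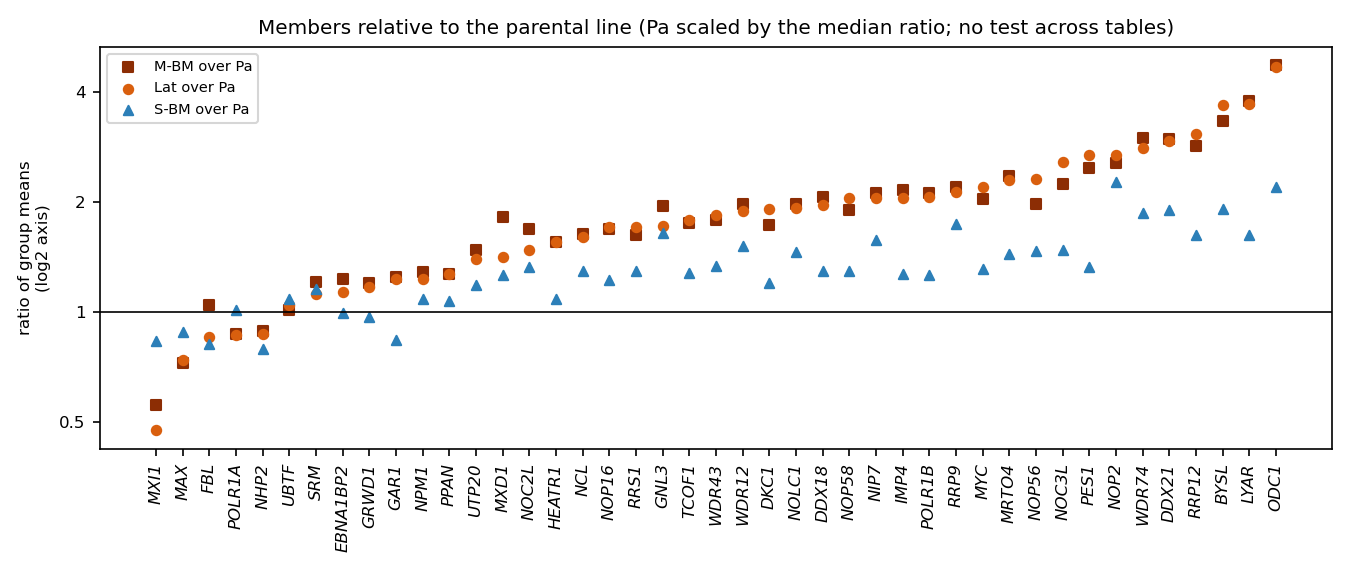
Ratio of each group's mean to the scaled Pa mean for the members, on a log2 axis, for M-BM, Lat and S-BM. ODC1, LYAR and BYSL lie highest in M-BM and Lat, NOP2 and ODC1 in S-BM. S-BM lies nearer to Pa than M-BM and Lat in most members, and MXI1 lies below 1 in all 3 groups.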

How the data were processed

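Per the labels' protocols, total RNA (RNeasy) went into TruSeq RNA v2 libraries. This kit does not mark the strand, so a gene and an overlapping gene on the opposite strand cannot be told apart. The submitters' processing notes name Bowtie 0.12.2 and the GRCh38 build. How reads were counted, annotated and normalized is not stated in the sources. The deposited values are a signal: normalized counts per gene, scaled by the authors, with S-BM, Lat and M-BM in 1 table and Pa in another. Whole reads were recovered from the step of each column, within 0.05 reads, for edgeR and DESeq2 as alternatives only.

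The 12 libraries outside Pa were fitted with limma 3.58.1 (R 4.3.3) on log2(value + 1) with a variance trend and 9 residual degrees of freedom. A fold change is on that scale, which understates the change of low genes. Genes needed a value of 10 in 4 of 12 libraries, and p-values were adjusted by Benjamini-Hochberg over 9646 genes. The fit was tested on simulated data with 1 fixed spread and large changes in a small share of the genes. Here 59.7% of tested genes were called in Lat minus S-BM. The simulation held no changes as small as the members' median log2 of 0.41, so it cannot tell how well such changes are called. The tables hold 25 date-like names.

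The members and lists were chosen with earlier results of these data known. Values in every library are given for MYC, MAX, MXD1, MXI1, ODC1 and SRM, and for the members with the largest and smallest absolute difference in Lat minus S-BM in each role. Alternatives covered the pseudocount, filter, scaling, test tool, replicate block and left-out libraries, and 2 were added after seeing the data.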

Additional observations from a re-analysis of the deposited data

Results flagged for a closer look

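Each member was examined in each group of 4 libraries for a library set apart from the other 3, by Dixon's ratio of gap to range at the 95% level. Of 129 such sets, 11 were flagged, and chance flags about 1 in 20 groups. The sets were not independent, because the members did not vary independently within a group. No share over all tested genes was computed, so no excess over chance can be read from this count. No cause was tested for any of them.

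S-BM 2 stood apart in 4 sets. NOP56 was 128.2 there, while its other 3 libraries ranged over 180.8 to 189.7. DDX21 was 487.5, against 614.2 to 623.4, and IMP4 was 31.68, against 50.02 to 52.9. UBTF was higher in S-BM 2, at 120.3, against 102.3 to 103.5.

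Lat 3 stood apart in 2 sets, with DDX18 at 251.4, beside 387.1 to 397.9 in the rest of Lat, and IMP4 at 61.4, against 77.69 to 79.5. In M-BM 4, MXI1 was 25.02, beside 20.2 to 20.87 in the rest of M-BM, and WDR74 was 64.03, against 82.18 to 83.99. HEATR1 was 274.1 in M-BM 1, against 233.5 to 238.6, and 158.2 in S-BM 4, where the rest of S-BM ranged over 173.9 to 175.9. LYAR was 39.42 in S-BM 1, against 24.67 to 26.69.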

How the results depend on the processing

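Over 26 alternatives, the count of members called higher ran from 22 to 28 in Lat minus S-BM (23 to 27 with 1 library left out) and from 23 to 31 in M-BM minus S-BM (23 to 31 likewise), and 0 members were called in M-BM minus Lat under each of them. Of the members called higher, 21 of 27 in Lat and 22 of 28 in M-BM were called in every alternative. No such share over all genes was computed. Calls over all genes, in either direction, moved as well. They ran from 4846 to 7980 in Lat minus S-BM, beside 5754 in the main fit. In M-BM minus S-BM they ran from 4379 to 6771, beside 5084. Alternatives with another filter tested a different number of genes. The members called lower numbered 2 in both comparisons without S-BM 3 and S-BM 4, 2 in M-BM minus S-BM without S-BM 2, Lat 3 and M-BM 2 (chosen after seeing the data), and 1 to 2 with 1 library left out. Members with all S-BM libraries below Pa numbered 0 with Pa as deposited, against 2 scaled. The E-box share was 19.4% in the 250 bases before the start alone, which is a shorter window. Of 1716 values of the 22 named members, 1612 kept their direction and side of the threshold, 46 lost a call, 21 gained one, 37 changed sign while called in neither, and 0 changed sign while called. Over all genes, M-BM minus Lat gave 14 calls, with a range of 3 to 141 (DESeq2). Other causes of these shifts were not tested.

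The labels do not say that replicate numbers pair libraries, so the numbers were not taken as pairs. Residual correlations between groups were -0.27 to 0.32 for same-numbered libraries and -0.30 to 0.32 for others. Above 0.1 lay 4 of 12 same-numbered pairs and 7 of 36 others, which does not settle the matter. With the replicate block, 27 members were higher in Lat and 28 in M-BM over S-BM, NPM1 lost its M-BM call (adjusted p = 0.0713, limma), and NOC2L gained one (adjusted p = 0.0303, limma). Of all genes called with the block, 50.6% were higher in Lat and 51.2% in M-BM over S-BM.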
